A study of Mus musculus with 32 samples.

Results

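The 10 genes described here control the G1 phase of the cell cycle, and their transcripts were measured in mouse marrow stem and progenitor cells of the blood (HSPCs). They were listed by name as controllers of G1, with no threshold on their values: the Cip/Kip inhibitors Cdkn1a (p21), Cdkn1b (p27) and Cdkn1c (p57), the INK4 inhibitors Cdkn2c (p18) and Cdkn2d (p19), the D-type cyclins Ccnd1, Ccnd2 and Ccnd3, and the kinases Cdk4 and Cdk6. All 10 were listed among the 45706 genes of the deposited tables, and all 10 were among the 15186 genes that passed the expression filter. After LPS, Cdkn1c was lower in experienced and in naive mice, Cdkn1a was higher in experienced mice, and Ccnd1 and Cdkn2c were lower in naive mice. No test of a difference between experienced and naive mice was passed by any of the 10 genes.

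In G1, D-type cyclins bind Cdk4 or Cdk6, and the active kinases phosphorylate the retinoblastoma protein, which frees E2F factors to switch on genes of DNA replication. INK4 proteins bind Cdk4 and Cdk6 and keep the cyclins away, whereas Cip/Kip proteins bind cyclin-kinase complexes and inhibit Cdk2 above all. In blood stem cells, p57, p27, p18 and p21 have each been linked in mice to rest in the cell cycle or to the number of stem cells, and Cdk6 to the exit from rest.

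The libraries were bulk RNA-seq of sorted HSPCs from a mouse model of remission from acute myeloid leukaemia. Lethally irradiated C57BL/6J recipients (CD45.2) were given 800000 whole-marrow cells from healthy wild-type mice (CD45.1+/2+) beside 200000 whole-marrow cells of a partner donor (CD45.1). In AF9_Experienced mice, called experienced below, the partner cells were homozygous for hMLL-AF9, a human leukaemia fusion gene induced by doxycycline, and for rtTA, the activator that doxycycline switches on. In Naive mice the partner cells were hMLL-AF9-null and homozygous for rtTA only. Doxycycline was started 6 to 8 weeks after the transplant, given for 5 weeks and then stopped for 4 weeks. The labels describe that schedule for the mice without naming the naive group separately. Mice then received lipopolysaccharide (LPS), which comes from bacterial walls and sets off inflammation, or phosphate-buffered saline (PBS), and marrow was taken 24 h later. The cells sorted were of wild-type donor origin (CD45.1+/2+, lineage-negative, Kit-positive, Sca1-positive), so the genes measured are those of cells without the fusion in both kinds of mice. There were 4 libraries each of experienced LPS, experienced PBS, naive LPS and naive PBS. The dose of LPS, the age of the mice and the promoter that drives rtTA are not stated in the labels used here.

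Libraries held between 7718857 and 22264672 expected counts. Experienced LPS replicate 4 stood apart: it had the fewest counts, the highest mitochondrial share of counts in any library (7.30%, against 1.91% in the lowest) and a mean correlation of 0.915 with the other libraries of its group. The next highest mitochondrial share was 5.94% in experienced PBS replicate 4, and the next fewest counts were 8538322 in naive LPS replicate 2. Results for LPS in experienced mice are also given without experienced LPS replicate 4 below. Kit, the stem cell factor receptor of the gate, was present in every group, at a mean of 142 ± 40.9 TPM, a level scaled for transcript length, in experienced LPS libraries and 203 ± 25.5 TPM in naive PBS libraries (SD, n = 4 each). Ly6a, which encodes the gate's Sca1, was at 130 to 201 TPM in experienced LPS libraries, against 26.3 to 78.1 TPM in experienced PBS libraries. It was at 90.7 to 231 TPM in naive LPS libraries, against 48.9 to 70.9 TPM in naive PBS libraries. In bulk samples of a sorted gate, fewer cells of a type and less RNA per cell cannot be told apart, and this holds for every difference below.

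Promoter windows, which run from 250 bases before to 50 bases after a transcription start, were listed by RefSeq (GRCm38.p6) for 7 of the 10 genes: Cdkn1a, Cdkn1b, Cdkn2c, Cdkn2d, Ccnd3, Cdk4 and Cdk6. Those of Cdkn1a are shown because it was the only one of the 10 called higher after LPS, that of Cdkn2c because it was called lower in naive mice, and that of Cdk4 because it had the highest level of the 10. The windows lie on the plus strand at chr17:29090729-29091028 (Cdkn1a start 1), the plus strand at chr17:29093519-29093818 (Cdkn1a start 2), the minus strand at chr4:109666707-109667006 (Cdkn2c start 2) and the plus strand at chr10:127063285-127063584 (Cdk4). Capitals mark matches, on either strand, to the motifs named after them.
Cdkn1a start 1: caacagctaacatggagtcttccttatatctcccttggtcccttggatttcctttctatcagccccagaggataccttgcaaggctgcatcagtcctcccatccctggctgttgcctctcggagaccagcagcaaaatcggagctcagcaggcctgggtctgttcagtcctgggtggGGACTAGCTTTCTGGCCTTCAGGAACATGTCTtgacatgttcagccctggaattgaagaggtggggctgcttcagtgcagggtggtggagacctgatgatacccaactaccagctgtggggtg
Cdkn1a start 2: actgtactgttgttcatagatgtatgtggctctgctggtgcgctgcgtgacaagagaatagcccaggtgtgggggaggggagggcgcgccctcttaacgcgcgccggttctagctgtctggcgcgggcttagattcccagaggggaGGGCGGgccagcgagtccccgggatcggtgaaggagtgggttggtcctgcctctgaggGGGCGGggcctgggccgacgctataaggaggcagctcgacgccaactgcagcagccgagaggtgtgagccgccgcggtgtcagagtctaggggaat
Cdkn2c start 2: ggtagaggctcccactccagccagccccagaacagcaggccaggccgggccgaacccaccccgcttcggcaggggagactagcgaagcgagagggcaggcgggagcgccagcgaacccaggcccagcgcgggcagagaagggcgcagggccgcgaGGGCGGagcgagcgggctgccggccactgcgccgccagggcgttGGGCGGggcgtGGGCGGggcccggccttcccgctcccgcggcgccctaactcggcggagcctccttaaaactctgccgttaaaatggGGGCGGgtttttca
Cdk4: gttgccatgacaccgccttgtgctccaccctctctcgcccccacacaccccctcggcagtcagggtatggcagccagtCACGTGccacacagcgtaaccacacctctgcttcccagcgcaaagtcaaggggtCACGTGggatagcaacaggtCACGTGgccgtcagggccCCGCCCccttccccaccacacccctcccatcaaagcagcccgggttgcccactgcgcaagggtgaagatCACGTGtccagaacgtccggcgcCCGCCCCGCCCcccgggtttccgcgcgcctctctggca
The motifs searched on both strands were the GC box (GGGCGG), the CCAAT box (CCAAT), the Myc E-box (CACGTG), an E2F motif (TTTNNCGC), a Stat motif (TTCNNNGAA), a FoxO motif (GTAAACA), the p53 site and the kappaB site. Of 32851 RefSeq windows of mouse genes, 35.7% held the GC box, 37.4% the CCAAT box, 7.15% the E-box, 5.17% the E2F motif, 8.30% the Stat motif, 3.65% the FoxO motif, 0.0731% the p53 site and 4.51% the kappaB site. The run in capitals at Cdkn1a start 1 matched the p53 site, spacer included, and the one in capitals at Cdkn1a start 2 matched the GC box in 2 places. The Cdkn2c window held 4 GC boxes. The Cdk4 window held 4 E-boxes, the capitals that read CACGTG, and 3 GC boxes read on the other strand, of which 2 overlap in a run. Among the windows not printed, that of Cdkn2d held a kappaB match that overlaps a GC box, and that of Cdk6 held 1 E-box and 1 E2F match. Those of Cdkn1b and Ccnd3 start 2 each held GC and CCAAT boxes, Ccnd3 start 1 held GC boxes and a FoxO match, and Cdkn2c start 1 held a CCAAT box and an E-box. These matches describe letters and were not set against the expression values.

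In TPM, which allows levels of different genes to be compared, the kinases led, Ccnd2 and Ccnd3 followed, and the inhibitors and Ccnd1 came last. Cdk4, the kinase partner of D cyclins with the highest level, averaged 547 ± 70.3 TPM in experienced LPS, 554 ± 66.6 in experienced PBS, 510 ± 106 in naive LPS and 550 ± 96.8 TPM in naive PBS libraries (SD, n = 4 in each group here and below). Cdk6 averaged 293 ± 12.6, 321 ± 81.4, 316 ± 56.3 and 310 ± 83.8 TPM in the same groups, and was below Cdk4 in every one of the 16 libraries. Only in naive LPS libraries did the ranges of the 2 kinases overlap.

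Ccnd2 and Ccnd3 came next and did not differ beyond their spread: Ccnd3 averaged 132 ± 34.1 and Ccnd2 114 ± 21.2 TPM in experienced LPS libraries, and in naive PBS libraries Ccnd2 averaged 132 ± 39.0 and Ccnd3 127 ± 17.4 TPM. Their order was reversed between these groups, with overlapping ranges in each. Cdkn1b was the most abundant inhibitor, at 44.1 ± 26.5 TPM in experienced LPS, 63.3 ± 4.85 in experienced PBS, 45.1 ± 17.5 in naive LPS and 49.7 ± 2.07 TPM in naive PBS libraries. Ccnd1, Cdkn2c, Cdkn2d and Cdkn1a shared the next tier at group means between 12.9 and 23.0 TPM, and neighbours in that tier overlapped in every group. Cdkn1c was last in every group, at 0.637 ± 0.337 TPM in experienced LPS, 2.64 ± 0.547 in experienced PBS, 0.682 ± 0.442 in naive LPS and 2.54 ± 0.524 TPM in naive PBS libraries. Its ranges overlapped with no other gene of the 10.

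**Figure D1:**
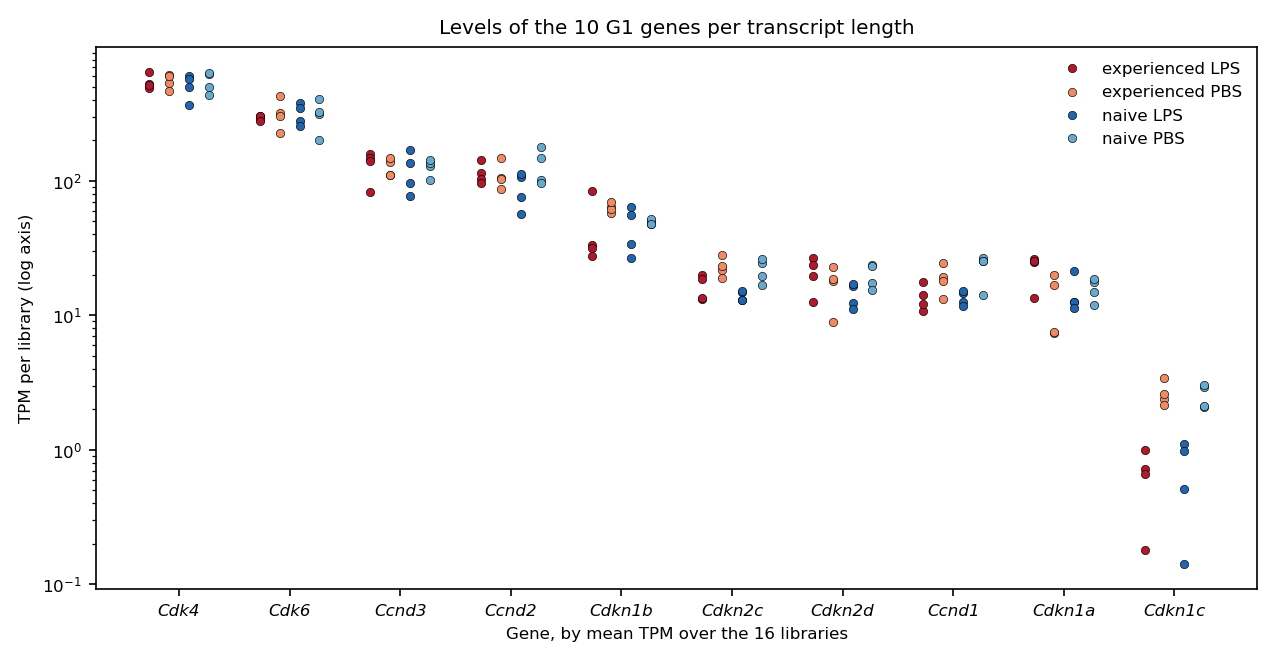
Level of each of the 10 genes in each library, in TPM on a log axis, with genes ordered by their mean over the 16 libraries and 1 point per library coloured by group. Cdk4 and Cdk6 lie highest, Cdkn1c lies lowest, and its LPS points lie below its PBS points.

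Within the families, Ccnd2 and Ccnd3 made up nearly all D-cyclin transcripts. Ccnd1 held 5.43% ± 1.57 of summed D-cyclin TPM in experienced LPS libraries and 7.30% ± 1.02 in experienced PBS libraries. It held 6.27% ± 1.11 in naive LPS libraries and 8.14% ± 1.64 in naive PBS libraries. Cdk4 held between 61.6% and 65.0% of Cdk4 plus Cdk6 TPM as a mean of each group. Cdkn1b held most Cip/Kip TPM in every group, with a mean of 62.0% ± 15.9 in experienced LPS libraries and 80.5% ± 7.42 in experienced PBS libraries. The share of Cdkn1a in Cip/Kip TPM was 47.9%, 42.1%, 44.3% and 13.7% in experienced LPS replicates 1 to 4, against a mean of 16.1% ± 7.19 in experienced PBS libraries. The share of Cdkn1b was 50.8%, 56.2%, 55.4% and 85.6% in the same experienced LPS libraries, and for each gene replicate 4 alone lay within the range of the experienced PBS libraries. In naive mice the share of Cdkn1a was 24.9% ± 6.44 in LPS libraries, against 23.1% ± 3.23 in PBS libraries. Summed inhibitor TPM per D-cyclin TPM was 0.424 ± 0.167 in experienced LPS, 0.473 ± 0.0743 in experienced PBS, 0.406 ± 0.0764 in naive LPS and 0.398 ± 0.0499 in naive PBS libraries, with overlapping ranges.

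The values that follow are CPM, counts scaled to a common library size with edgeR's scaling factors, given for replicates 1 to 4 in turn. Differences are on the log2 scale with their SE, and a gene was called at an adjusted p under 0.05 over all 15186 genes in edgeR's quasi-likelihood test. For LPS against PBS in experienced mice, 1 of the 10 genes was called higher and 1 lower, where 4.52% of all genes tested were called higher and 8.26% lower. For LPS against PBS in naive mice, 0 of the 10 were called higher and 3 lower, where 9.81% of all genes were called higher and 11.9% lower. Counts of this size among 10 genes were not read as a property of the group, and the results below are those of single genes. The median log2 difference of the 10 was 0.05 in experienced mice, where that of all genes was -0.03. In naive mice it was -0.21, where that of all genes was 0.02.

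Among the Cip/Kip inhibitors, Cdkn1c was lower after LPS in experienced and in naive mice. Cdkn1c (chr7:143458339-143461050, minus strand) encodes p57, the member of the family that marks resting stem cells in mice. It had 1.07, 1.58, 0.283 and 0.962 CPM in experienced LPS libraries, against 3.14, 4.68, 3.53 and 3.16 CPM in experienced PBS libraries. It had 1.47, 1.55, 0.800 and 0.263 CPM in naive LPS libraries, against 3.18, 2.76, 3.70 and 5.27 CPM in naive PBS libraries. Every LPS library was below every PBS library in either kind of mouse. The difference was -1.94 ± 0.51 in experienced mice (adjusted p = 0.0187, 0.261-fold with a 95% interval of 0.124 to 0.546). In naive mice it was -1.87 ± 0.50 (adjusted p = 0.0144, 0.273-fold with an interval of 0.132 to 0.565). These were low counts, 3 to 28 per LPS library and 34 to 90 per PBS library, so the interval of each fold is wide. The call in experienced mice was lost without LPS replicate 3 or without PBS replicate 2, with adjusted p up to 0.0609 over the libraries left out, and the call in naive mice was kept each time. The LPS response in experienced less that in naive mice was -0.07 ± 0.69, with an interval from -1.52 to 1.39, which does not show that the responses were alike.

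Cdkn1a rose in experienced mice after LPS. Cdkn1a (chr17:29090976-29100727, plus strand) encodes p21, a target of p53 that also responds to other stress signals. It had 35.1, 36.1, 35.9 and 19.8 CPM in experienced LPS libraries, against 22.9, 20.1, 9.54 and 11.2 CPM in experienced PBS libraries. Of the LPS libraries, replicates 1 to 3 lay above every PBS library and replicate 4 lay within their range. The difference was 0.99 ± 0.27 (adjusted p = 0.0226, 1.99-fold with a 95% interval of 1.35 to 2.94). In naive mice it had 28.1, 18.2, 18.0 and 20.3 CPM in LPS libraries, against 23.0, 17.7, 21.8 and 20.2 CPM in PBS libraries. The naive groups overlapped, with a difference of 0.04 ± 0.26 (adjusted p = 0.941) and an interval from -0.52 to 0.60. It took a small negative value with upper-quartile scaling and with TPM.

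Whether Cdkn1a responded more in experienced than in naive mice was tested directly, and the test was not passed. The difference of the responses was 0.96 ± 0.38, with an unadjusted p of 0.0210 and an adjusted p of 0.884. Between experienced and naive mice, Cdkn1a differed by 0.58 ± 0.27 after LPS (adjusted p = 1) and by -0.37 ± 0.27 after PBS (adjusted p = 0.988). Experienced PBS replicates 3 and 4 had the lowest Cdkn1a of all 16 libraries. The call of Cdkn1a in experienced mice was lost without LPS replicate 1, 2 or 3 or PBS replicate 3, with adjusted p up to 0.0637. It was lost on the TPM scale and when only the 8 libraries compared were fitted, with adjusted p up to 0.122 over the other settings. Without LPS replicate 4 the difference was 1.18 ± 0.25 (adjusted p = 0.00473).

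Cdkn1b was not called, and 1 library decided that. Cdkn1b (chr6:134920401-134925513, plus strand) encodes p27, which holds Cdk2 inactive in resting cells. It had 71.2, 90.2, 88.8 and 197 CPM in experienced LPS libraries, against 166, 144, 168 and 183 CPM in experienced PBS libraries. LPS replicates 1 to 3 lay below every PBS library, and replicate 4 lay above every one. With all libraries the difference was -0.57 ± 0.26 (adjusted p = 0.166). Without experienced LPS replicate 4 it was -0.96 ± 0.18 (adjusted p = 0.00203), which passes the test. In naive mice Cdkn1b had 126, 148, 78.1 and 135 CPM in LPS libraries, against 135, 135, 122 and 159 CPM in PBS libraries. There LPS replicate 3 alone lay below every PBS library, and the difference was -0.18 ± 0.26 (adjusted p = 0.670).

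**Figure D2:**
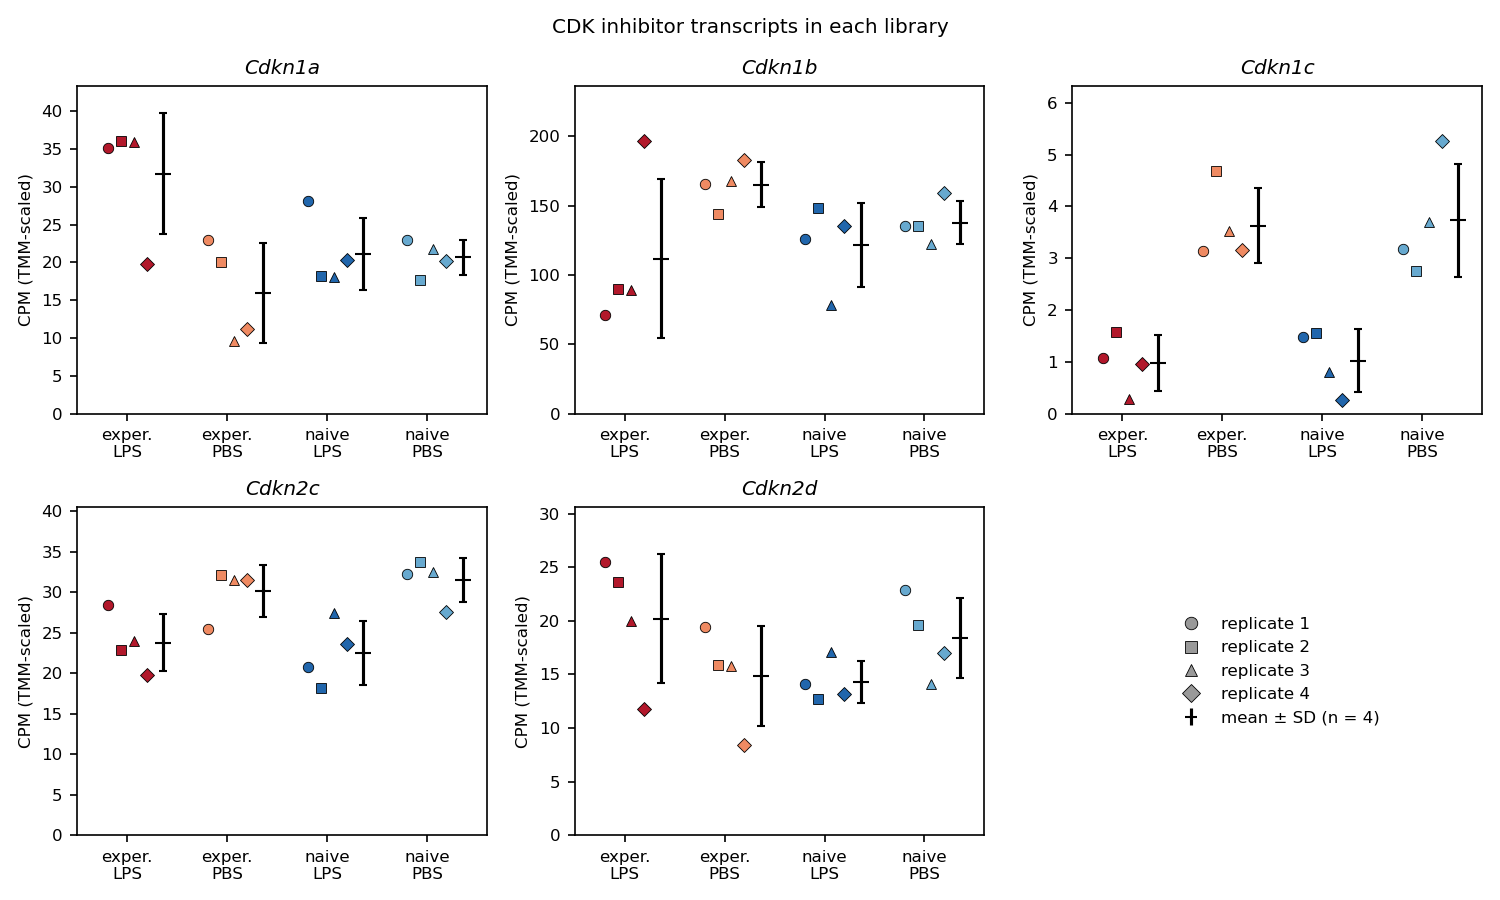
CPM of the 5 inhibitors in each library by group ("exper." is experienced), with a marker for each replicate and the mean ± SD (n = 4) beside the points. Cdkn1c is lower in all 8 LPS libraries, and experienced LPS replicate 4 (19.8 CPM for Cdkn1a and 197 CPM for Cdkn1b) stands away from replicates 1 to 3.

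Of the INK4 inhibitors, Cdkn2c was lower after LPS in naive mice by a modest margin. Cdkn2c (chr4:109660876-109667189, minus strand) encodes p18, whose loss in mice enlarges the stem cell pool. It had 20.8, 18.2, 27.4 and 23.6 CPM in naive LPS libraries, against 32.2, 33.7, 32.5 and 27.5 CPM in naive PBS libraries. The groups did not overlap, although LPS replicate 3 and PBS replicate 4 almost met. The difference was -0.48 ± 0.15 (adjusted p = 0.0350, 0.716-fold with a 95% interval of 0.571 to 0.898). The call was lost when any library except naive LPS replicate 3 was left out, with no filter on low counts and on the TPM scale, among other settings. In experienced mice Cdkn2c had 28.4, 22.9, 23.9 and 19.8 CPM in LPS libraries, against 25.4, 32.1, 31.5 and 31.5 CPM in PBS libraries. The difference there was -0.34 ± 0.16 (adjusted p = 0.163), and the responses differed by 0.14 ± 0.22 between experienced and naive mice (adjusted p = 0.919).

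Cdkn2d (chr9:21288410-21291407, minus strand), which encodes p19, had 25.5, 23.6, 20 and 11.8 CPM in experienced LPS libraries, against 19.4, 15.9, 15.8 and 8.37 CPM in experienced PBS libraries. It had 14.1, 12.7, 17.1 and 13.2 CPM in naive LPS libraries, against 22.9, 19.6, 14.1 and 17.0 CPM in naive PBS libraries. The groups overlapped in either kind of mouse, with replicate 4 the lowest of each experienced group. Experienced LPS replicates 1 to 3 lay above every experienced PBS library, and naive LPS replicates 2 and 4 lay below every naive PBS library. The difference was 0.44 ± 0.26 in experienced mice (adjusted p = 0.283) and -0.36 ± 0.26 in naive mice (adjusted p = 0.342). Without experienced LPS replicate 4 it was 0.65 ± 0.24 in experienced mice (adjusted p = 0.0644), which does not pass. The responses differed by 0.81 ± 0.37 (unadjusted p = 0.0421, adjusted p = 0.884), so the opposite signs did not pass the test of their difference. The INK4 genes Cdkn2a and Cdkn2b were at or near 0: the highest value in any library was 0.0900 TPM for Cdkn2a and 0.05 TPM for Cdkn2b.

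Among the D-type cyclins, Ccnd1 was lower after LPS in naive mice. Ccnd1 (chr7:144929931-144939925, minus strand) encodes cyclin D1, whose transcription follows growth factor signals. It had 35.1, 41.7, 37.6 and 34.2 CPM in naive LPS libraries, against 81.3, 60.3, 61.2 and 47.1 CPM in naive PBS libraries. The LPS libraries lay close together and all below the PBS libraries. The difference was -0.75 ± 0.21 (adjusted p = 0.0173, 0.595-fold with a 95% interval of 0.440 to 0.804). The call was lost without PBS replicate 1 (adjusted p = 0.0697) and on the TPM scale. In experienced mice Ccnd1 had 53.3, 34.8, 40 and 28.5 CPM in LPS libraries, against 45.3, 66.1, 37.9 and 47.3 CPM in PBS libraries. Those groups overlapped, with a difference of -0.32 ± 0.21 (adjusted p = 0.331), and the responses differed by 0.43 ± 0.29 (adjusted p = 0.884). In the annotation the span of Ccnd1, introns included, overlaps LTO1 on the other strand. Without the strand setting of the counting, reads from a stretch that both genes share cannot be told apart. The same holds for gene models on the other strand of Cdkn1a (AC167363.2), Cdkn1c (Gm44732) and Ccnd2 (Gm43126 and 9330179D12Rik). The models at Cdkn1a and Cdkn1c were not among the genes quantified, and those at Ccnd2 averaged 0.0 and 2.1 counts per library.

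Ccnd2, the D cyclin that responds to cytokines in blood cells, had 390, 377, 402 and 364 CPM in experienced LPS libraries, against 359, 461, 366 and 345 CPM in experienced PBS libraries. It had 374, 456, 375 and 302 CPM in naive LPS libraries, against 447, 443, 458 and 447 CPM in naive PBS libraries. The naive PBS libraries lay close together, and 3 of the 4 naive LPS libraries lay below them. The differences were 0.00 ± 0.14 in experienced mice (adjusted p = 0.993) and -0.25 ± 0.14 in naive mice (adjusted p = 0.195). In naive mice it was -0.59 on log2(TPM + 1) (adjusted p = 0.142), and voom with quality weights called it lower (-0.32, adjusted p = 0.0446).

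Ccnd3, the D cyclin tied to the growth of lymphoid and erythroid precursors, had 232, 238, 223 and 77.4 CPM in experienced LPS libraries, against 177, 188, 153 and 131 CPM in experienced PBS libraries. LPS replicates 1 to 3 lay above every PBS library and replicate 4 below every one, the mirror image of Cdkn1b. The difference was 0.25 ± 0.28 (adjusted p = 0.612), and 0.53 ± 0.20 without replicate 4 (adjusted p = 0.0641), which does not pass. In naive mice it had 173, 103, 209 and 192 CPM in LPS libraries, against 205, 186, 191 and 161 CPM in PBS libraries, with a difference of -0.13 ± 0.28 (adjusted p = 0.776). Naive LPS replicate 2, the lowest of its group for Ccnd3, was also the highest of its group for Cdkn1b. Ccnd3 overlaps Bysl on the other strand, with the same limit as for Ccnd1.

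The kinases were called in no comparison. Cdk4 had 404, 382, 390 and 299 CPM in experienced LPS libraries, against 319, 345, 345 and 369 CPM in experienced PBS libraries. It had 314, 326, 378 and 324 CPM in naive LPS libraries, against 347, 347, 345 and 358 CPM in naive PBS libraries. The differences were 0.10 ± 0.12 in experienced mice, with an interval from -0.16 to 0.35, and -0.06 ± 0.12 in naive mice, with an interval from -0.31 to 0.20. As folds, the 95% intervals were 0.898 to 1.28 in experienced and 0.806 to 1.15 in naive mice. Without experienced LPS replicate 4 the log2 difference in experienced mice was 0.21 ± 0.11 (adjusted p = 0.195). Cdk4 overlaps Tspan31 on the other strand.

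Cdk6, the kinase that lets stem cells leave rest in mice, had 1717, 1676, 1698 and 2124 CPM in experienced LPS libraries, against 1906, 1518, 1791 and 1570 CPM in experienced PBS libraries. It had 2016, 1979, 1552 and 1534 CPM in naive LPS libraries, against 1568, 1627, 1769 and 1521 CPM in naive PBS libraries. All groups overlapped. The differences were 0.09 ± 0.15 in experienced mice (adjusted p = 0.751) and 0.13 ± 0.15 in naive mice (adjusted p = 0.585). Cdk6 overlaps the gene model Gm17590 on the other strand.

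**Figure D3:**
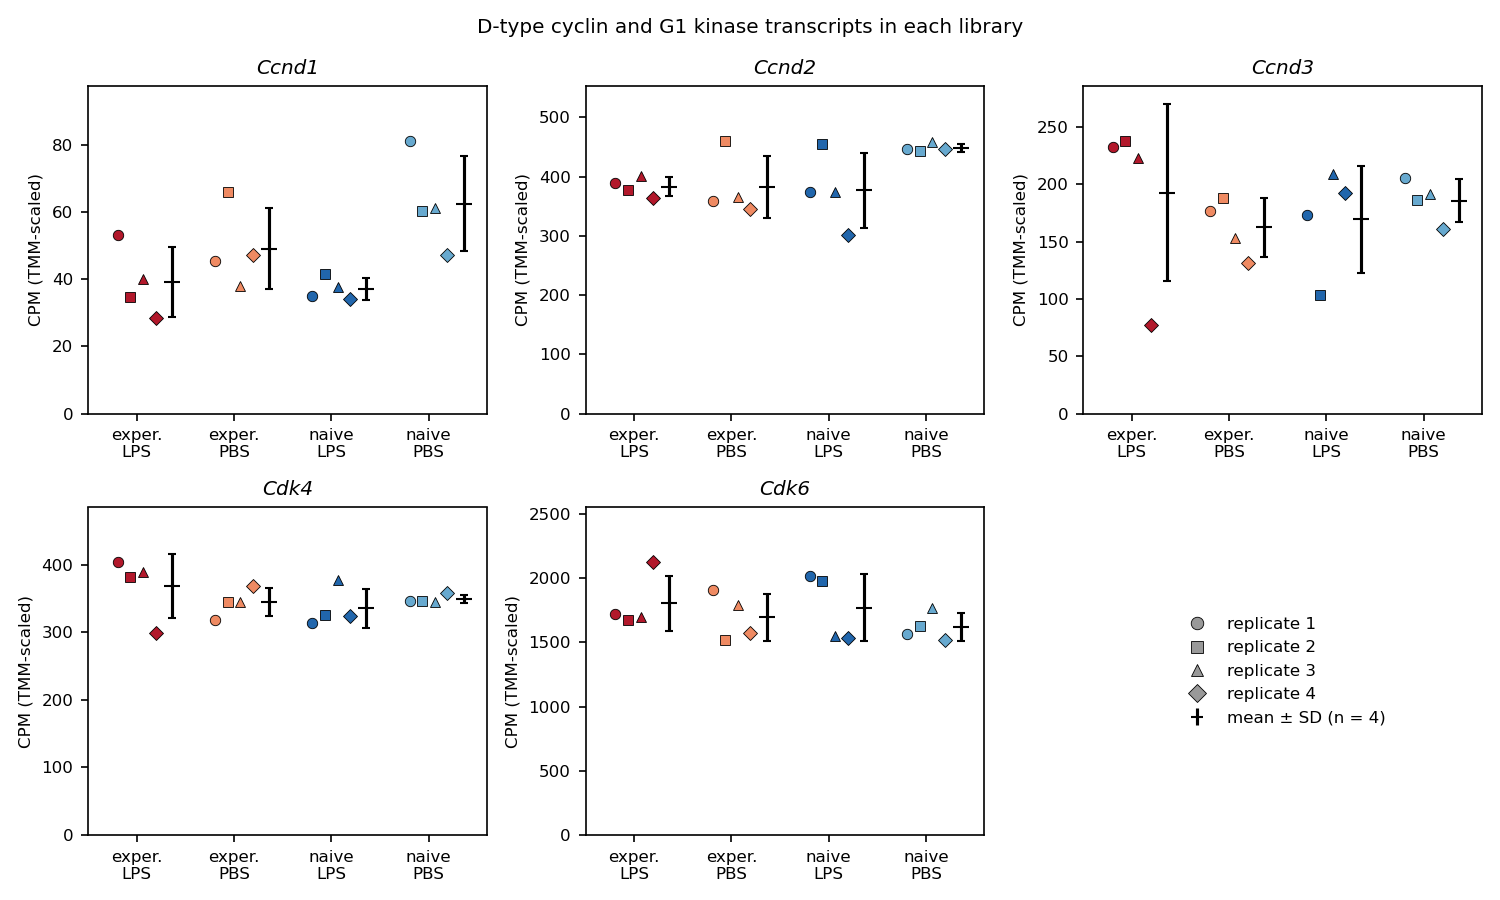
CPM of the D-type cyclins, Cdk4 and Cdk6 in each library by group ("exper." is experienced), with a marker for each replicate and the mean ± SD (n = 4). Naive LPS points for Ccnd1 (34.2 to 41.7 CPM) lie below all naive PBS points, and Ccnd3 in experienced LPS replicate 4 (77.4 CPM) lies far below replicates 1 to 3.

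**Figure D4:**
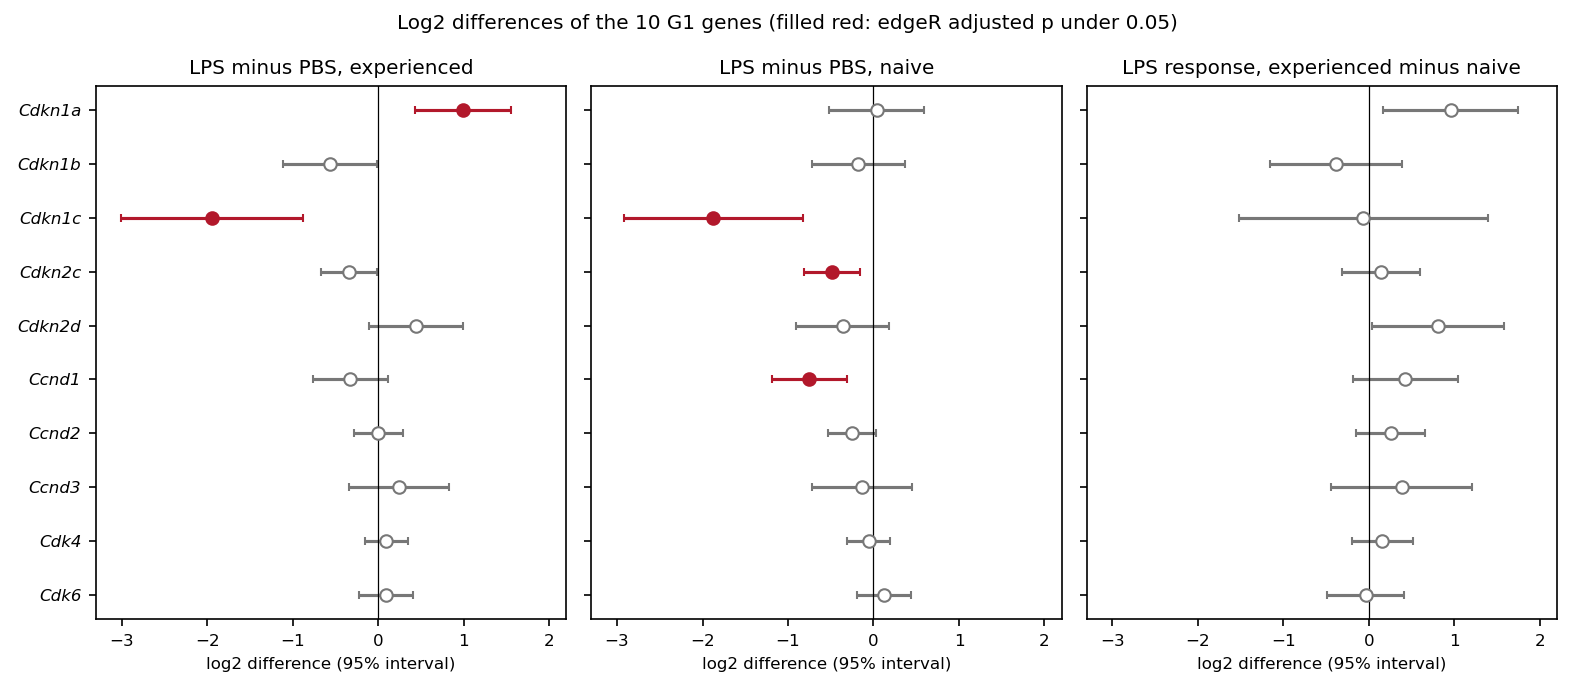
Log2 differences of the 10 genes with 95% intervals for LPS minus PBS in experienced mice, in naive mice, and for the LPS response in experienced less that in naive mice; filled red points were called. Cdkn1a and Cdkn1c were called in experienced mice, Cdkn1c, Cdkn2c and Ccnd1 in naive mice, and no gene for the difference of the responses.

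Between experienced and naive mice, edgeR called 0 of the 10 genes after PBS, 0 after LPS and 0 for the difference of the responses, and it called 0% of all genes in each of these comparisons. At an unadjusted p under 0.05 there were 0, 1 and 2 of the 10 genes, Cdkn1a after LPS and Cdkn1a with Cdkn2d for the responses. Of all genes there were 451 (2.97%) after PBS, 491 (3.23%) after LPS and 695 (4.58%) for the responses at that level. DESeq2 called 2, 2 and 1 genes in the same comparisons, and none of them was one of the 10. The intervals bound what could have been missed: after PBS, the experienced over naive fold was 0.828 to 1.18 for Cdk4, 0.840 to 1.3 for Cdk6 and 0.700 to 1.04 for Ccnd2. Among the inhibitors it was 0.524 to 1.14 for Cdkn1a, 0.822 to 1.75 for Cdkn1b, 0.496 to 1.92 for Cdkn1c, 0.765 to 1.2 for Cdkn2c and 0.557 to 1.18 for Cdkn2d. For the other D cyclins it was 0.584 to 1.06 for Ccnd1 and 0.582 to 1.31 for Ccnd3.

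Without experienced LPS replicate 4, LPS against PBS in experienced mice called 3 of the 10 genes, Cdkn1a higher and Cdkn1b and Cdkn1c lower, where 9.36% of all genes were called higher and 10.9% lower. The test of the responses was still not passed without it: the LPS response in experienced less that in naive mice was 1.13 ± 0.35 for Cdkn1a, -0.79 ± 0.24 for Cdkn1b and 0.99 ± 0.33 for Cdkn2d, each with an adjusted p of 0.192.

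**Figure D5:**
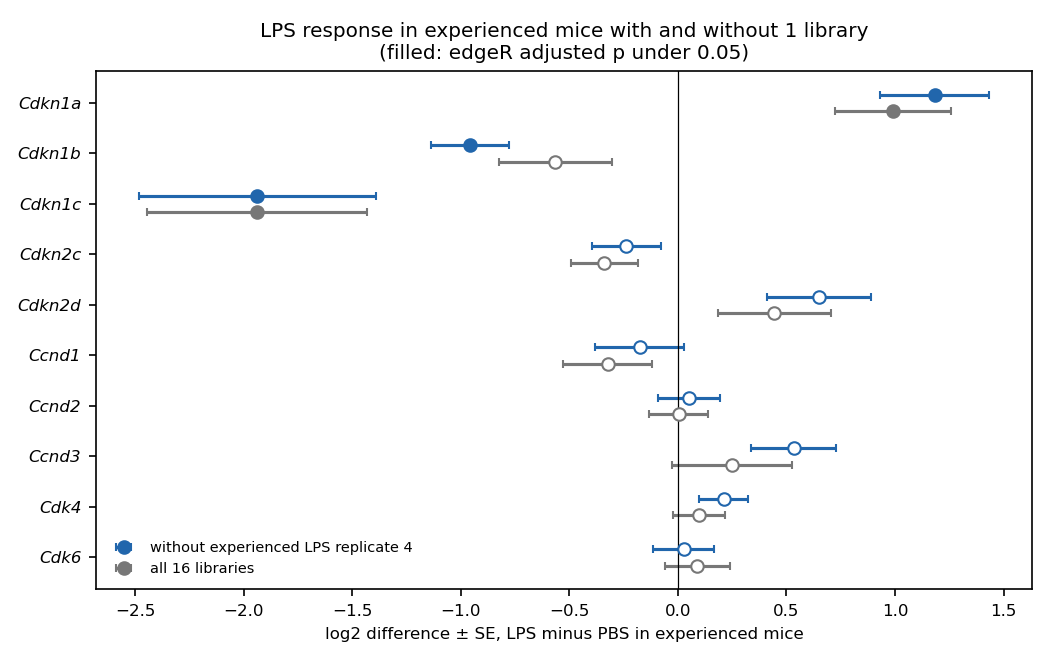
Log2 difference ± SE of LPS minus PBS in experienced mice for each gene, without experienced LPS replicate 4 (blue) and with all 16 libraries (grey); filled points were called. Cdkn1b is at -0.96 without that library and at -0.57 with all libraries, and Cdkn1c is at -1.94 in each case.

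The genes whose log2 CPM followed each called gene most closely over the 16 libraries were found among 10156 genes with sufficient counts, and the correlations take in the difference between LPS and PBS libraries. Nfkb2 (r = 0.929), Maff (0.884) and Il4ra (0.881) were most like Cdkn1a. Tmem135 (0.924), Prkacb (0.923) and Armcx1 (0.918) were most like Cdkn1c. Atg7 (0.877), Agpat3 (0.876) and Mpst (0.873) were most like Cdkn2c. Dusp4 (0.884), Etv5 (0.880) and Serpinf1 (0.860) were most like Ccnd1.

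The rest of the G1 pathway was read from 5 lists. For LPS in experienced mice, 4.52% of all genes tested were called higher and 8.26% lower. Without experienced LPS replicate 4 these shares were 9.36% and 10.9%. In naive mice they were 9.81% and 11.9%. Counts near these shares, here and for the marker lists below, were not read as a property of a list. Of 8 tested genes among other G1 cyclins, kinases and INK4 inhibitors, 1 was higher after LPS in experienced mice, Mnat1 of the Cdk-activating kinase (0.80 ± 0.25, adjusted p = 0.0411). In naive mice 2 were higher, Ccne1, the cyclin E that acts after the D cyclins (1.41 ± 0.41, adjusted p = 0.0229), and Cdc25a, a phosphatase that activates Cdk2 (0.35 ± 0.12, adjusted p = 0.0473). Of 18 retinoblastoma, E2F and DREAM genes, 1 was lower in experienced mice, Tfdp2, a dimer partner of E2F (-0.84 ± 0.13, adjusted p = 0.000701). In naive mice 2 were higher and 3 lower: E2f8 was higher (1.20 ± 0.24, adjusted p = 0.00264), and Tfdp2 (-0.57 ± 0.13, adjusted p = 0.00612) and E2f3 (-0.44 ± 0.14, adjusted p = 0.0346) were lower. The others there, named because the count is small, were E2f4, higher by 0.70, and E2f2, which fell by 0.56.

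Of 14 ubiquitin ligase genes and factors that destroy G1 proteins, Rbx1 was higher in experienced mice (0.49 ± 0.14, adjusted p = 0.0333) and Cul4a in naive mice (0.52 ± 0.18, adjusted p = 0.0441). Of 14 transcription regulators of the inhibitors and D cyclins, 1 was higher and 2 lower in experienced mice, and 3 were higher and 2 lower in naive mice. Smad3, which relays TGF-beta signals, was lower in experienced (-0.73 ± 0.12, adjusted p = 0.00137) and naive mice (-0.84 ± 0.12, adjusted p = 0.000254). Foxo3, a FoxO factor that acts on Cdkn1b, was also lower in experienced (-0.68 ± 0.15, adjusted p = 0.00719) and naive mice (-0.62 ± 0.15, adjusted p = 0.00809). Gata2 was higher in experienced (0.61 ± 0.17, adjusted p = 0.0264) and naive mice (0.83 ± 0.17, adjusted p = 0.00316). Myc (0.55) and Hes1 (1.44), named because the count is small, were the others called higher in naive mice. In these 4 lists, 0 genes were called between experienced and naive mice, as 0 were over all genes. Without experienced LPS replicate 4 the call of Mnat1 in experienced mice was lost (0.54, adjusted p = 0.0746), and those of Tfdp2, Rbx1, Smad3, Foxo3 and Gata2 were kept. Calls gained there, outside the naming rule, were Cdc25a (0.41, adjusted p = 0.0183), Tfdp1 (0.52, adjusted p = 0.0128), Cks1b (0.62, adjusted p = 0.00544) and Ddb1 (0.51, adjusted p = 0.0240), which were higher, and Rbl2 (-0.62, adjusted p = 0.00907) and Foxo1 (-0.67, adjusted p = 0.0366), which were lower. Whether the responses of these genes differ between experienced and naive mice was tested with all libraries, and 0 of them were called.

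Of 16 S phase and mitosis markers, which show whether cells replicate and divide, 0 were called in experienced mice by edgeR with all libraries, against 6 higher without experienced LPS replicate 4 (Aurkb, Ccnb1, Cdk1, Mcm3, Mcm5 and Rrm2). In naive mice 2 were higher, Birc5 (0.72) and Rrm2 (0.67). Their summed level was 1752 to 2139 TPM in experienced LPS libraries, 1662 to 2081 in experienced PBS, 1224 to 2353 in naive LPS and 1225 to 2029 TPM in naive PBS libraries, so the groups overlapped.

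Transcripts that mark cell types within or beside the gate differed with LPS beside these genes. The shares of all genes called are those given with the pathway lists. Of 10 stem cell markers, 5 were lower in experienced and 6 in naive mice. Their summed level was 71.8 to 122 TPM in experienced LPS libraries against 194 to 296 in experienced PBS libraries, and 56.6 to 99.6 TPM in naive LPS libraries against 244 to 309 in naive PBS libraries. These ranges did not overlap, as those of Cdkn1c did not. Hlf had the highest level of the list in PBS libraries. It was at 24.1 ± 11.2 TPM in experienced LPS against 107 ± 14.6 TPM in experienced PBS libraries. In naive mice it was at 22.0 ± 8.45 TPM in LPS against 125 ± 19.9 TPM in PBS libraries. The mean TPM of Slamf1 and of Ctnnal1 was higher after LPS in either kind of mouse, and the other means were lower. Of 7 lymphoid-primed progenitor markers, 6 were lower in experienced and 7 in naive mice, with 45.8 to 79.6 TPM in experienced LPS against 196 to 846 TPM in experienced PBS libraries, and 36.1 to 61.0 TPM in naive LPS against 352 to 519 TPM in naive PBS libraries. Of 6 basophil and mast cell markers, 4 were higher in experienced and 6 in naive mice, with 167 to 330 TPM in experienced LPS against 36.6 to 135 TPM in experienced PBS libraries, and 214 to 477 TPM in naive LPS against 33.0 to 64.7 TPM in naive PBS libraries. Of 6 megakaryocyte markers, 2 were higher in experienced and 2 in naive mice, Itga2b and Gp1bb in each case, with 275 to 470 TPM in experienced LPS against 127 to 204 TPM in experienced PBS libraries, and 302 to 314 TPM in naive LPS against 122 to 256 TPM in naive PBS libraries. These ranges did not overlap either. In naive mice the sum followed Itga2b, at 237 ± 16.3 TPM in LPS against 99.8 ± 31.1 TPM in PBS libraries. Pf4 went the other way there, at 43.8 ± 16.7 against 70.9 ± 21.1 TPM, and the means of Gp9 and Ppbp were also lower after LPS. Of the megakaryocyte list 0 genes were called lower in naive mice, and its median log2 difference there was -0.31. Of 7 tested erythroid markers, 0 were called in experienced mice and 4 were higher in naive mice. The summed level of the list was 176 to 920 TPM in experienced LPS against 47.1 to 1314 TPM in experienced PBS libraries. In naive mice it was 295 to 949 TPM in LPS against 18.2 to 116 TPM in PBS libraries. That sum followed Car1, at 549 ± 295 TPM in naive LPS against 63.8 ± 37.2 TPM in naive PBS libraries. Some haemoglobin genes of the list went the other way, at low levels. Mean TPM in naive LPS against PBS libraries was 1.92 against 2.47 for Hba-a2 and 0.917 against 2.40 for Hbb-bs. For Hbb-bt it was 1.32 against 2.25. Without experienced LPS replicate 4, the calls in experienced mice were 1 higher and 6 lower of the stem cell markers, with Ctnnal1 and Hoxb5 gained, 6 lower of the lymphoid-primed, 3 higher of the basophil and mast cell markers, with Il1rl1 lost, 4 higher of the megakaryocyte and 0 of the erythroid markers. Kit was called lower without that library and not with it. Of these 5 lists, Hba-a1 of the erythroid list was the only gene listed at 0 in every library of a group, naive PBS. The part of these differences in the values of Cdkn1a, Cdkn1c, Cdkn2c and Ccnd1 was not tested.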

How the data were processed

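RNA of sorted HSPCs gave 16 tables, 1 per biological replicate. The labels list 2 technical replicates of each, and it is not stated whether their reads were merged. The labels name a droplet kit, but the tables hold 1 value per gene and library and were treated as bulk. The submitters' processing notes name Trim Galore 0.6.7, STAR 2.7.10a, RSEM 1.3.1 and the build GRCm38. The annotation release and strand setting used are not given in the sources here. The deposited tables hold RSEM expected counts and TPM, per the file headers, and between 7718857 and 22264672 expected counts per library. RSEM shares out reads with several matching genes by its own estimates.

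GENCODE on GRCm38 supplied symbols and positions, with 45143 of 45706 identifiers matched. Table columns name the group and not the sample, so replicate numbers come from table names and only name libraries. The labels call the replicates biological, but whether each is a separate mouse is not stated. The p-values reflect only the spread between these libraries, which is not the spread between mice if the replicates share mice. No pair of libraries agreed within counting noise.

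Expected counts were rounded, filtered by edgeR's expression filter by group (15186 genes with 99.928% of counts kept) and normalised with TMM factors (trimmed means of M values). The quasi-likelihood test of edgeR 4.0.16 in R 4.3.3 used all 16 libraries with a mean for each group, with a common biological coefficient of variation of 0.306 and 12 residual degrees of freedom. The test was run on simulated counts first. P-values were adjusted by Benjamini-Hochberg over all genes tested, and log2 differences had a median SE of 0.25 (0.35 for the difference of responses). Alternatives were DESeq2 1.42.0, limma 3.58.1 on log2(TPM + 1) or log2(TPM + 0.1), voom with quality weights, other scalings and filters, a replicate block, the 8 libraries compared alone, and each library left out.

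The 10 genes and all lists were chosen with earlier results of these data known. All 10 are named in every comparison. From each pathway list the counts are given with up to 3 called genes of lowest adjusted p, and for each called member the 3 genes of highest Pearson correlation with mean log2 CPM of at least 2. All 15 lists were counted for LPS in experienced and naive mice. Those not described in the results called 0 of 6 B cell, 1 of 2 T and NK, 1 of 9 granulocyte and monocyte, 1 of 3 stromal and 2 of 3 sort gate genes in experienced mice, and 2, 1, 1, 1 and 1 in naive mice.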

Additional observations from a re-analysis of the deposited data

Results flagged for a closer look

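In 40 groups of 4 libraries, 10 genes in 4 groups, 5 had a highest or lowest library whose gap to its neighbour was above Dixon's 95% critical value, as a share of the group's range. Chance flags about 1 in 20 groups. The 4 flags of experienced LPS libraries all fell on replicate 4, the library with the fewest counts: Cdkn1a was lowest at 19.8 CPM (next 35.1), Cdkn1b highest at 197 CPM (next 90.2), Ccnd3 lowest at 77.4 CPM (next 223) and Cdk6 highest at 2124 CPM (next 1717). In experienced PBS libraries, Cdkn2c was lowest at 25.4 CPM in replicate 1 (next 31.5).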

How the results depend on the processing

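Of 970 recomputed values of the 10 genes, 887 kept their direction and their side of the threshold. The called values, Cdkn1a and Cdkn1c in experienced mice and Cdkn1c, Cdkn2c and Ccnd1 in naive mice, kept their direction under every setting run. LPS in experienced mice called 1940 genes, against 1132 with limma on log2(TPM + 1), 1107 with log2(TPM + 0.1), 7542 with voom and quality weights, 1179 with the 8 libraries alone, and 1065 to 3157 with 1 library left out, the highest without LPS replicate 4 and the lowest without PBS replicate 1. Of the 10 genes it called 2, against 1, 1, 6 and 1 under those settings and 0 (without LPS replicate 3) to 3 with 1 library left out. The voom fit with weights called Cdkn1b (-0.89), Cdkn2d (0.45), Ccnd3 (0.36) and Cdk4 (0.20) as well. LPS in naive mice called 3293 genes, against 1880 and 1772 with limma on the TPM scales and 2089 (without PBS replicate 2) to 3490 with 1 library left out. Of the 10 genes it called 3, against 1 and 1 on the TPM scales, 2 with no filter, 4 with voom, which added Ccnd2 (-0.32), and 1 (without PBS replicate 1) to 3 with 1 library left out. Between experienced and naive mice 0 genes were called after PBS, against 2 with DESeq2, 1 with limma on log2(TPM + 1) and 2 with voom; 0 after LPS, against 2 with DESeq2 and 2 with voom; and 0 for the responses, against 1 with DESeq2. None of these was one of the 10 genes, and the cause of these changes was not tested.

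Of genes called for LPS in experienced mice, 35.4% were higher, against 15.7% and 15.9% on the TPM scales and 46.7% with voom. In naive mice 45.2% were higher, against 35.0% with upper-quartile scaling and 19.9% and 20.4% on the TPM scales. On log2(TPM + 0.1) the median gene moved by -0.17 in experienced and -0.11 in naive mice, and by -0.13 on log2(TPM + 1) in experienced mice.

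Replicate numbers were not taken to pair libraries. Deviations of same-numbered LPS and PBS libraries correlated at 0.18, 0.22, -0.12 and 0.32 in experienced mice, where 2 of 4 libraries correlated best with their own number, and at -0.10 to 0.01 in naive mice. With the replicate block 1592 genes were called in experienced and 2920 in naive mice, and of the 10 genes 2 and 2, Cdkn2c in naive mice being lost (adjusted p = 0.0523).

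In 54 recomputations, 16 differences of the 10 genes changed sign, none called in either setting. Their sizes with all libraries and the edgeR test as reported were at most 0.133. For LPS in experienced mice, Ccnd2 was -0.0397 with upper-quartile scaling and -0.0702 with voom. On the TPM scales Cdk4 was -0.0198 and -0.0198 and Cdk6 -0.0956 and -0.0958. In naive mice Cdkn1a was -0.0403 with upper-quartile scaling and -0.15 and -0.16 on the TPM scales. After PBS, experienced minus naive, the TPM scales gave Cdkn1c 0.0395 and 0.0536, Cdkn2c 0.0763 and 0.0798 and Cdk4 0.0197 and 0.0198, and voom gave Cdkn1c 0.33. After LPS they gave Cdk6 -0.0911 and -0.0914, and log2(TPM + 0.1) gave Cdkn1c 0.0009. For the responses, Cdk6 was 0.0011 with upper-quartile scaling. With 1 library left out the ranges were, for LPS in experienced mice, -0.0281 to 0.10 for Ccnd2, and in naive mice -0.13 to 0.12 for Cdkn1a and -0.25 to 0.0658 for Ccnd3. Experienced minus naive after PBS they were -0.18 to 0.17 for Cdkn1c, -0.13 to 0.0107 for Cdkn2c and -0.0676 to 0.0154 for Cdk4. After LPS they were -0.54 to 0.0393 for Cdkn1b, -0.43 to 0.25 for Cdkn1c, -0.018 to 0.19 for Cdkn2c, -0.10 to 0.21 for Ccnd1, -0.0618 to 0.13 for Ccnd2 and -0.0523 to 0.0953 for Cdk6. For the responses they were -0.39 to 0.30 for Cdkn1c and -0.11 to 0.0306 for Cdk6.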
